A study of Mus musculus with 6 samples.

Results

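Metallothioneins and the genes that set cellular zinc were examined in mouse liver, in animals with and without a Retnla transgene. The set holds 10 genes out of 12705 tested. They are the metallothioneins Mt1 and Mt2, their transcriptional activator Mtf1, exporters of the Slc30a family, and the zinc importers Slc39a1, Slc39a4 and Slc39a14. The exporters are Slc30a1, Slc30a5, Slc30a7 and Slc30a10, the last best known for manganese. Members were taken by gene symbol from the platform annotation, which gave 21 probe sets with exactly 1 symbol. Of these, 19 had a mean signal above the filter on dim probe sets, and all 10 genes had at least 1 that passed. The filter lay at a log2 signal of 5.63; the dimmest probe set inside it belonged to Slc39a14, with a mean of 6.02, and the brightest outside it to Mtf1, with 4.40. The probe set that stands for each gene was chosen by its signal, as the highest mean over the 6 arrays. That choice does not use the groups, but the list itself was drawn up when a difference in Mt1 and Mt2 was already known, so their values below are a description and not independent support.

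The Tg group was 3 mice carrying the transgene, numbered Tg 5, Tg 6 and Tg 7, and the controls were 3 mice that lacked it, numbered non-Tg 1, non-Tg 2 and non-Tg 3. All 6 were males on a C57BL6/J background, aged 3 months, and all had been on a high-fat diet with 21% fat and 0.15% cholesterol for 4 weeks, so no group on standard diet entered the comparison. Each mouse gave 1 liver and 1 Affymetrix array. The sources used here do not give the promoter that drives the transgene, the number of founder lines or whether the mice were littermates.

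Metallothioneins are small cysteine-rich proteins that bind zinc and copper in the cytosol. The liver makes large amounts of Mt1 and Mt2, and both genes are known to respond to zinc, to glucocorticoids, to inflammatory cytokines and to fasting. Free zinc is sensed by MTF-1, a zinc finger factor that binds metal response elements in the promoters of Mt1, Mt2 and Slc30a1. Proteins of the Slc30a family (ZnT) move zinc out of the cytosol, across the plasma membrane or into organelles, and those of the Slc39a family (ZIP) move it in.

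Mt1 and Mt2 lie next to each other on chromosome 8, with Mt3 and Mt4 close by. The stretch before each gene start is shown with the core of the metal response element in capitals. Whether these elements bear on the signals was not tested. The sequences are from RefSeq, build GRCm38.p6, plus strand, and end at the base before the annotated gene start: chr8:94178839-94179088 for Mt1 and chr8:94172368-94172617 for Mt2.
Mt1: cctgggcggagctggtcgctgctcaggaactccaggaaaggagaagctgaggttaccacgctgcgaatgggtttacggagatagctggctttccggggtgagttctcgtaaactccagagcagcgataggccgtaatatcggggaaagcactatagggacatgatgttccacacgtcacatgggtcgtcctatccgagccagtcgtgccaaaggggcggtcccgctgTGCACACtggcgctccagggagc
Mt2: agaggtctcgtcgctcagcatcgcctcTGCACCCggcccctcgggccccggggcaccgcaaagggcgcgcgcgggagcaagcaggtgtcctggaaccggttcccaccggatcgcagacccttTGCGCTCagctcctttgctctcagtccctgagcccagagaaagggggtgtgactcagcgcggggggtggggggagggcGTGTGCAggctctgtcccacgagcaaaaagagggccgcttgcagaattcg
The core was searched as TGCACNC and TGCGCNC on both strands. The 250 bases before Mt2 held 3 matches, a number reached by 1.26% of the 32851 promoters in the table, and those before Mt1 held 1 match; 21.4% of promoters held at least 1. The Mt2 match nearest the start lies on the other strand and so reads reversed in the line above. The annotated start sets what a window can hold, and whether most Mt1 transcripts begin there was not tested. With the 50 bases after the start included, Mt1 had 3 matches and Mt2 had 4, numbers reached by 1.97% and 0.517% of promoters.

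Of the other members, 6 had a promoter in the table. Slc30a10 held 3 core matches, 2 of which overlap on opposite strands, Slc30a1 and Slc30a5 held 1 each, and Mtf1, Slc30a7 and Slc39a1 held none in the 250 bases. Mt3, a metallothionein best known from brain, held none and Mt4, known from stratified epithelia, held 1. The core of the antioxidant response element, searched as TGANNNNGC, occurred once before Mt2 and not in the Mt1 window. At least 1 match was held by 35.2% of promoters. This core was not searched past the annotated start, so its absence holds for this Mt1 window only. The E-box CACGTG matched only before Slc30a5 among these genes (6.02% of promoters), the Sp1 box GGGCGG gave 5 matches before Slc30a1, a number reached by 1.93% of promoters, and 2 before Mt1, and the STAT palindrome TTCNNNGAA matched in none of these windows (7.02% of promoters). None of these matches overlapped a match of another motif. A match describes letters, not a bound site.

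**Figure D1:**
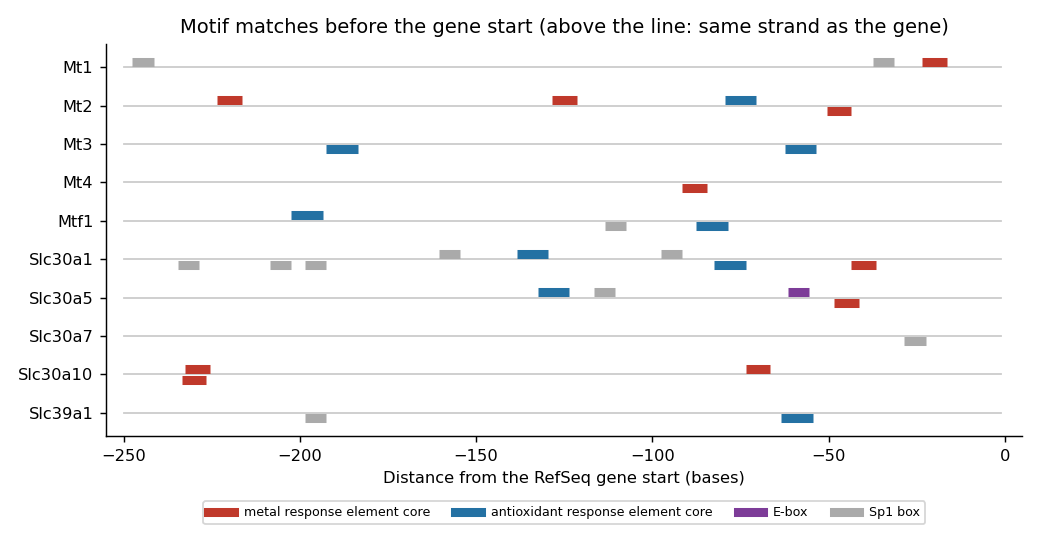
Positions of motif matches in the 250 bases before the RefSeq gene start of Mt1 to Mt4 and of the members with a promoter sequence (x axis: distance from the start in bases; marks above a line lie on the gene's strand, below it on the other strand). In this window Mt2 and Slc30a10 carry 3 metal response element cores each, of which 2 in Slc30a10 overlap, and Mt1 carries 1, near the start. With the 50 bases after the start included, which are not drawn, Mt1 has 3 and Mt2 has 4.

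The labels were checked on Retnla first. Its log2 signal was 15.91 to 16.04 in the 3 Tg livers and 6.03 to 7.41 in the 3 non-Tg livers, so every array fitted its label. Across all tested genes 2 passed a limma adjusted p of 0.05, which is 0.0157% of 12705, and both were higher in Tg livers. The groups did not overlap for 11.7% of genes, 6.04% with all Tg values above and 5.64% with all below. Signals are on the log2 scale, and arrays were scaled to a common trimmed mean by the authors. The arrays fell into a set with lower signal of bioC, a bacterial spike-in transcript (non-Tg 1, Tg 5 and Tg 6, at 9.83 to 9.94), and a set with higher signal (non-Tg 2, non-Tg 3 and Tg 7, at 11.21 to 11.45). Hepatocyte markers were bright and near level: over 10 measured markers the median difference was -0.01, with Tat apart at 1.12 and without overlap (described below), and albumin was at 16.20 to 16.39 on the 6 arrays.

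Metallothionein signals were the most different among the 10 genes, 4.46-fold (Mt1) and 4.64-fold (Mt2) higher in Tg livers on average, with a wide spread between mice of the same group. Mt1, which encodes metallothionein 1, was at 14.21, 11.97 and 12.40 in non-Tg 1, non-Tg 2 and non-Tg 3, and at 15.37, 15.45 and 14.23 in Tg 5, Tg 6 and Tg 7. The groups did not overlap, but only just: non-Tg 1 lay 0.03 below Tg 7, while the other two non-Tg livers lay far lower. The mean was 12.86 ± 1.19 (SD, n = 3) without the transgene and 15.02 ± 0.68 (SD, n = 3) with it. The groups differed by 2.16 ± 0.52 (SE; 95% interval 1.00 to 3.31) on the log2 scale, and the limma adjusted p over all genes was 0.653, which does not pass.

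Mt2, which encodes metallothionein 2, followed the same order of mice. It was at 12.62, 10.43 and 11.05 in non-Tg 1, non-Tg 2 and non-Tg 3, and at 13.45, 14.48 and 12.82 in Tg 5, Tg 6 and Tg 7. Here too non-Tg 1 stood nearest to the Tg livers, 0.20 below Tg 7, and Tg 6 was highest. The means of 13.58 ± 0.84 and 11.37 ± 1.13 (SD, n = 3 each) differ by 2.21 ± 0.53 (SE), again with a limma adjusted p of 0.653. Among all tested genes Mt1 and Mt2 ranked 38 and 40 by unadjusted p and 16 and 12 by size of the difference. The exact permutation p was 0.1 for each, the smallest that 3 mice against 3 can give.

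**Figure D2:**
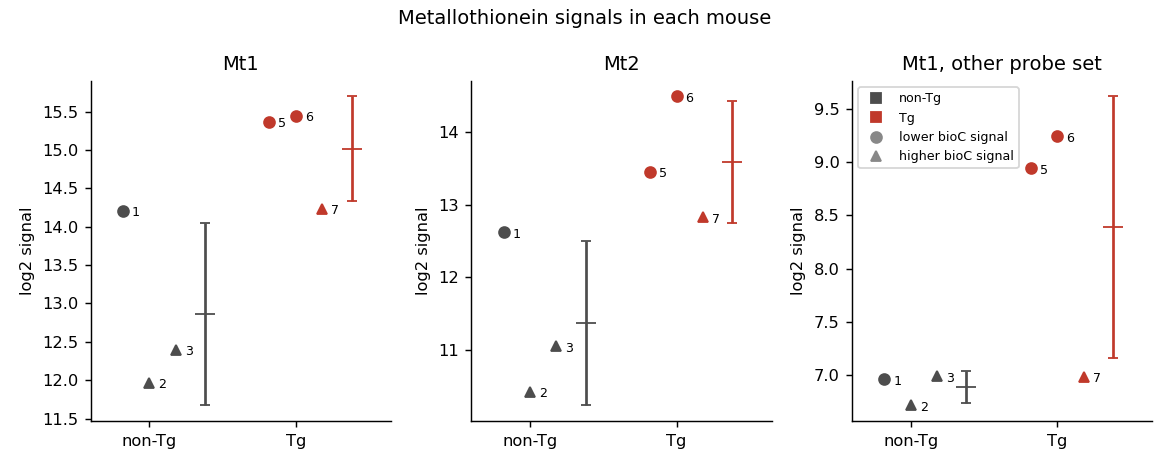
Log2 signal of Mt1, Mt2 and the other Mt1 probe set in each mouse (points, numbered as in the labels; circles and triangles mark arrays of lower and higher bioC signal), with the group mean and SD beside them. For Mt1 and Mt2 non-Tg 1 lies just under Tg 7, and on the other Mt1 probe set Tg 7 lies among the non-Tg livers.

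A further Mt1 probe set, much dimmer, gave a different picture for 1 mouse. It was at 6.96, 6.71 and 6.99 in the non-Tg livers and at 8.95, 9.25 and 6.98 in Tg 5, Tg 6 and Tg 7. Tg 5 and Tg 6 were high, Tg 7 was at the non-Tg level, and non-Tg 1 was not raised. The groups therefore overlapped, with a difference of 1.51 ± 0.51 (SE; limma adjusted p = 0.838 over all kept probe sets). No detection calls were used, so how far the dim values stand above background is not known. The identifier of the bright Mt1 probe set ends in _s_at, a mark for probe sets that can match several transcripts. Whether its signal holds RNA of a related gene such as Mt2 was not tested.

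The spread of the metallothioneins within a group was itself large. In non-Tg livers the SD of Mt1 exceeded that of 96.2% of tested genes and the SD of Mt2 that of 95.9%. In Tg livers these shares were 87.7% and 92.0%. From the lowest to the highest mouse the signal spanned 11.1-fold for Mt1 and 16.6-fold for Mt2. The correlation between both genes across the 6 arrays was 0.978 (Pearson r, a description over 6 arrays that include the group difference).

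The metallothionein signals also moved with the sets of arrays. In the fit with both terms, the set of lower bioC signal was 1.60 higher for Mt1 and 1.51 higher for Mt2 than the other set. Within the lower set, Tg 5 and Tg 6 against non-Tg 1, Mt1 differed by 1.20 and Mt2 by 1.34. Within the higher set, Tg 7 against non-Tg 2 and non-Tg 3, they differed by 2.05 and 2.08. Groups that do not overlap keep their order in any such split, so only the sizes could vary. With the sets as a block Mt1 differed by 1.62 ± 0.18 (SE) and passed (limma adjusted p = 0.0446), and Mt2 differed by 1.71 ± 0.29 (SE) and did not (limma adjusted p = 0.274). The part of the sets in the result was not tested. Leaving out non-Tg 1, the highest non-Tg liver for both genes, necessarily raised the differences, to 2.83 for Mt1 and 2.84 for Mt2. The limma adjusted p were then 0.0739 and 0.187. Leaving out non-Tg 2, the lowest, gave 1.71 and 1.75, with a limma adjusted p of 0.996 for each.

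**Figure D3:**
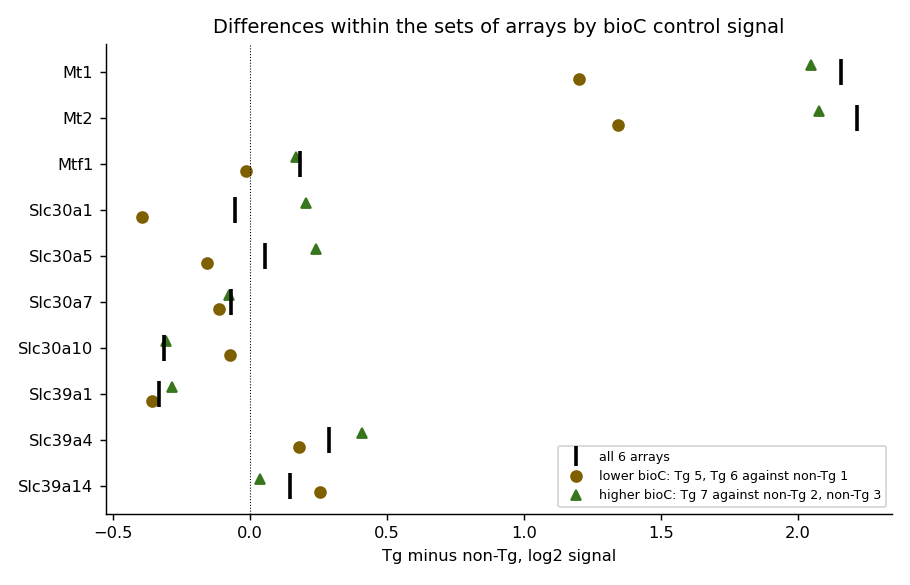
Tg minus non-Tg log2 difference of the 10 genes over all 6 arrays (bars) and within the sets of arrays with lower (circles) and higher (triangles) bioC signal. Mt1 and Mt2 lie at 1.20 to 2.08 within the sets, and Slc39a1 lies below 0 and Slc39a4 above 0 in both sets. The signs of these genes were fixed in advance, since their groups do not overlap. Mtf1, Slc30a1 and Slc30a5 lie on opposite sides of 0.

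Mtf1, the zinc-sensing activator of Mt1 and Mt2, differed little on its bright probe sets. It was at 8.49, 8.07 and 8.11 in the non-Tg and 8.51, 8.44 and 8.26 in the Tg livers, a difference of 0.18 ± 0.21 (SE; limma adjusted p = 0.880). The groups overlapped, with non-Tg 1 above Tg 6 and Tg 7. Within the lower and higher bioC sets Mtf1 differed by -0.01 and 0.17. Other kept Mtf1 probe sets gave 0.27 and -0.11. A probe set below the filter, at 2.90 to 3.24 in non-Tg and 5.34 to 6.17 in Tg livers, differed by 2.63 without overlap, while another below the filter differed by -0.97, so the dim Mtf1 probe sets disagreed in sign. Over the 6 arrays Mtf1 had a Pearson r of 0.882 with the mean of Mt1 and Mt2, on a signal that spanned only 0.44. The zinc transporters ran from -0.78 (Slc30a10) to 0.66 (Slc39a4), with the MTF-1 target Slc30a1 at 0.15. These values include the group difference and the shift between the sets of arrays, which was 0.31 for Mtf1. Whether Mtf1 bears on the metallothionein signals was not tested.

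The Slc30a members showed no difference beyond the spread between mice. Slc30a1 (ZnT1), the plasma membrane exporter and a known MTF-1 target, was at 11.65, 11.29 and 11.16 in non-Tg and 11.22, 11.28 and 11.43 in Tg livers. The values overlapped fully, and the highest was again non-Tg 1. The difference was -0.06 ± 0.14 (SE), and the dimmer Slc30a1 probe set gave 0.16. Slc30a1 differed by -0.40 in the set of lower bioC signal and by 0.20 in the other. The 95% interval of the difference, -0.38 to 0.26, leaves out a change of the size seen for Mt1 or Mt2. Whether Slc30a1 would move by as much as the metallothioneins was not tested.

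Slc30a5 (ZnT5) and Slc30a7 (ZnT7), which load zinc into the secretory pathway, differed by 0.05 ± 0.14 and -0.07 ± 0.14 (SE). Slc30a5 ran from 10.71 to 11.09 in non-Tg and from 10.85 to 11.10 in Tg livers. Slc30a7 ran from 9.80 to 9.95 in non-Tg livers, which lay inside the range of the Tg livers, lowest in Tg 5 at 9.68 and highest in Tg 6, and its dimmer probe set differed by -0.23. The 95% intervals were -0.26 to 0.37 for Slc30a5 and -0.39 to 0.25 for Slc30a7. For Slc30a10 (ZnT10), best known as a manganese exporter, values were 8.53, 9.16 and 8.88 in non-Tg and 8.85, 8.07 and 8.71 in Tg livers. Tg 6, the mouse with the most Mt2, had the lowest Slc30a10, and non-Tg 1 the next lowest. The difference was -0.31 ± 0.25 (SE; limma adjusted p = 0.849), and the other Slc30a10 probe set went the opposite way, at 0.09. Without Tg 6 the difference of Slc30a10 was -0.07.

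Among the zinc importers, Slc39a1 was lower and Slc39a4 higher in every Tg liver, by small amounts that did not pass. Slc39a1 (ZIP1), a widely expressed plasma membrane importer, was at 10.83, 10.74 and 10.91 in non-Tg and 10.39, 10.55 and 10.54 in Tg livers. Replicates lay close together and the groups were 0.20 apart. The difference was -0.33 ± 0.12 (SE), or 0.794-fold. Its limma p was 0.0212 before adjustment and 0.787 after it. The set of lower bioC signal was at -0.04 against the other set for Slc39a1, and within the sets the groups differed by -0.36 and -0.28.

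Slc39a4 (ZIP4), the importer that takes up dietary zinc in the intestine, was at 10.71, 10.62 and 10.61 in non-Tg and 11.02, 10.77 and 11.02 in Tg livers. Tg 6 was the lowest Tg value, 0.05 above non-Tg 1. The difference was 0.29 ± 0.12 (SE), or 1.22-fold, and 0.18 and 0.41 within the sets. Its limma p was 0.0438 before adjustment and 0.807 after it. Slc39a14 (ZIP14), the importer of zinc, manganese and iron that hepatocytes raise in the acute phase response, was at 11.50, 11.64 and 11.58 in non-Tg and 11.63, 11.88 and 11.65 in Tg livers. Tg 6 was highest, and Tg 5 lay below non-Tg 2. The difference of 0.15 ± 0.11 (SE; limma adjusted p = 0.842) did not pass, and further kept Slc39a14 probe sets gave 0.40, 0.44 and, for the dimmest, -0.64. Without Tg 6 the difference of Slc39a14 was 0.07.

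**Figure D4:**
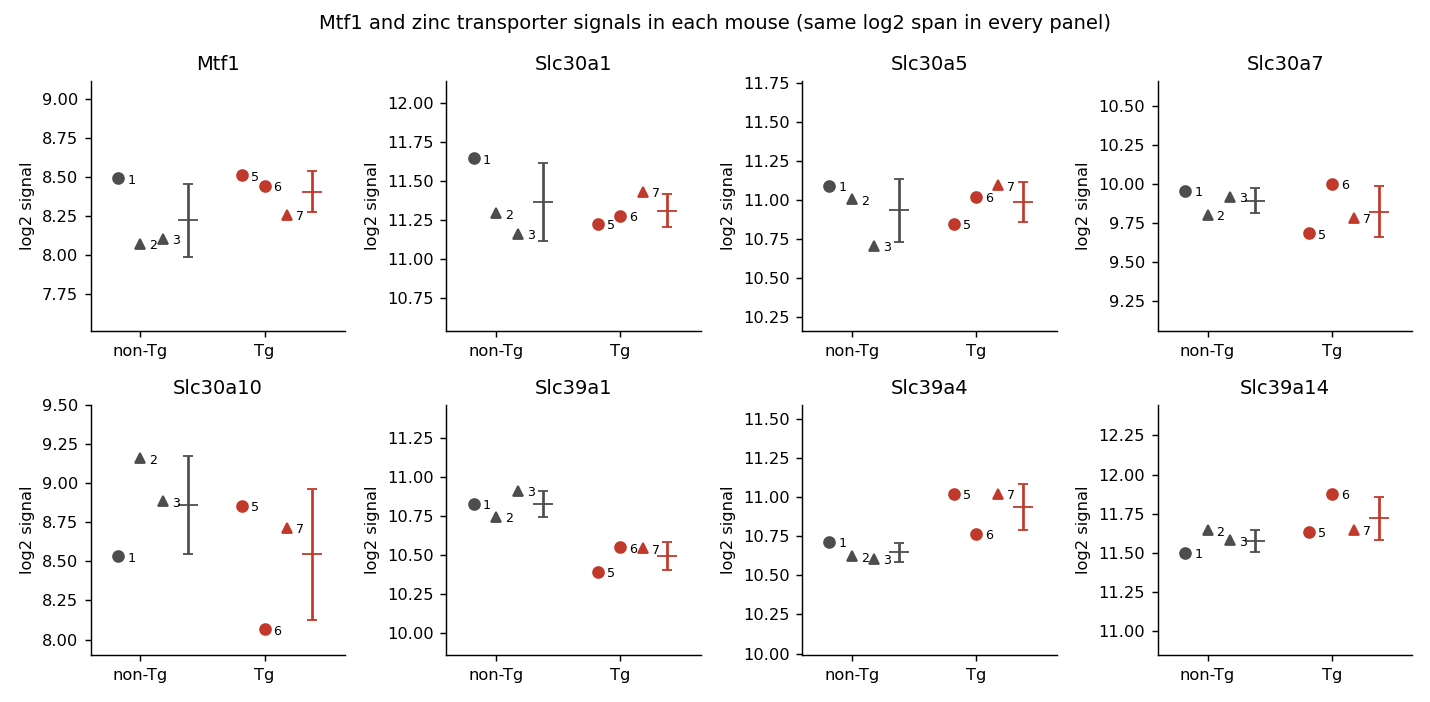
Log2 signal of Mtf1 and the 7 zinc transporters in each mouse (points, numbered as in the labels), with the group mean and SD; each panel spans the same number of log2 units. Only for Slc39a1 and Slc39a4 do the groups stand apart, by 0.20 and 0.05.

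In total, 0 of the 10 genes passed the limma adjusted threshold, where 0.0157% of all genes did, and 4 had groups that did not overlap (Mt1, Mt2, Slc39a1 and Slc39a4), where 11.7% of all genes did. At an unadjusted limma p under 0.05 the same 4 genes were counted, against 6.05% of all genes. The median difference of the 10 genes was 0.10, beside 0.01 over all tested genes. These counts cannot be read as support, since the list was drawn up with earlier results known.

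**Figure D5:**
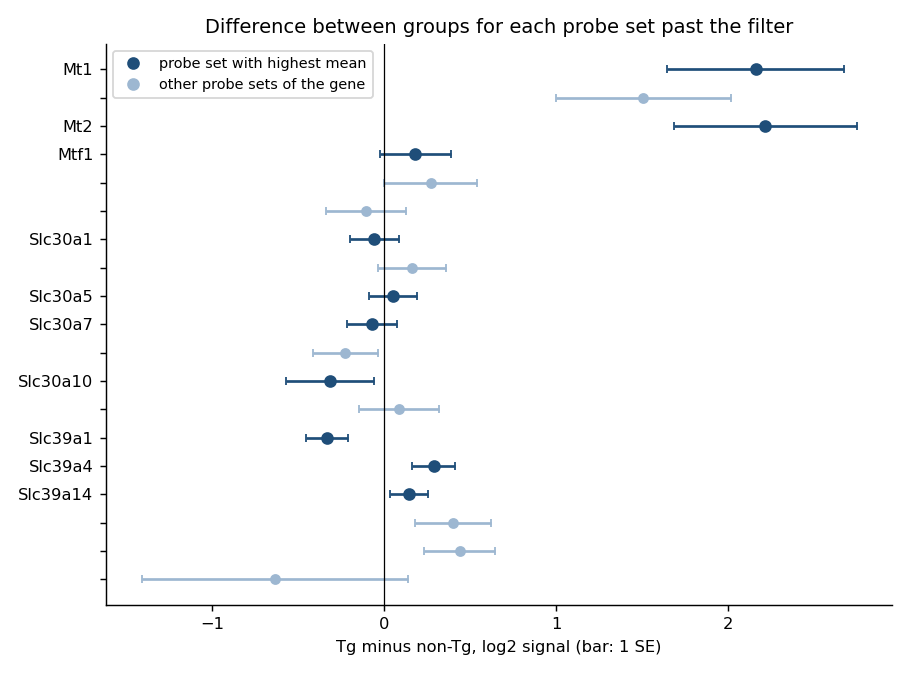
Tg minus non-Tg log2 difference with 1 SE for the 19 probe sets past the filter, ordered by gene (dark: the probe set that stands for the gene; light: its other probe sets). Mt1 and Mt2 lie at 1.51 to 2.21, and the other probe sets lie between -0.64 and 0.44.

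No tested gene among the remaining members of the same families passed the threshold. Of 11 other ZIP importers 8 were tested and 3 lay below the filter. Of those tested 0 passed, and the differences ran from -0.17 to 0.33. The largest was Slc39a9 (ZIP9), at 9.88 to 10.03 in non-Tg and 10.15 to 10.43 in Tg livers, a difference of 0.33 ± 0.14 (SE; limma adjusted p = 0.807) without overlap. Of 6 other ZnT exporters 4 were tested, 2 lay below the filter and 0 passed the threshold. All 4 had a difference below 0, as did 6091 of 12705 tested genes. The median of the 4 was -0.25: Slc30a4 stood at -0.38, Slc30a3 at -0.93 on a dim and variable signal, Slc30a9 at -0.13 and Slc30a6 at -0.08. Mt3 was dim and variable, at 4.65 to 6.90 in non-Tg and 4.30 to 7.67 in Tg livers, and Mt4 lay below the filter. Of 14 copper handling genes, since metallothionein also holds copper, 0 passed and 9 had a difference below 0, with a median of -0.05. Sco2, which delivers copper to cytochrome oxidase, had the smallest p, at -0.64 ± 0.15 (SE; limma adjusted p = 0.653).

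Genes near the metallothionein cluster were compared as well. Of the 5 nearest tested genes on each side, 8 of 10 had a difference above 0, from -0.17 to 1.50, and 0 passed. Over all tested genes 6611 of 12705 had a difference above 0. Bbs2, the nearest tested gene before the cluster, gave the highest value, at 1.50 ± 0.67 (SE). It was the only neighbour whose groups did not overlap (limma adjusted p = 0.807), a count of 1 in 10 beside 11.7% of all genes.

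Lists of genes that respond to the known inducers of metallothionein gave no gene past the threshold over all genes. Of 17 glucocorticoid-responsive genes 14 had a difference above 0, with a median of 0.49. Tat, tyrosine aminotransferase, was at 13.50 to 14.36 in non-Tg and 14.51 to 15.33 in Tg livers (1.12 ± 0.24, SE; limma adjusted p = 0.468), Dusp1, a phosphatase, differed by 0.99, and Klf9, also a glucocorticoid target, by -0.39. The glucocorticoid list had medians of 0.36 in the set of lower bioC signal and 0.37 in the other, and of 0.29 without Tg 6. Of 30 measured acute phase and IL-6 pathway genes 25 had a difference above 0, with a median of 0.28, but 0.25 and 0.06 within the sets. Much of the list's shift lay in Tg 6, the mouse with the highest Mt1 and Mt2: without it the median was 0.08. Lcn2, lipocalin 2, was at 12.51 in Tg 6 and 8.51 to 9.04 in the other mice, and the serum amyloid gene Saa1 at 15.02 against 12.46 to 12.94. Saa2, Saa3 and the orosomucoid Orm2 were likewise highest in Tg 6, at 13.03, 12.92 and 11.79, while Tg 5 and Tg 7 lay within or below the non-Tg range for all 5. These 5 genes were chosen after their values were seen. Without Tg 6, Mt1 differed by 1.94 and Mt2 by 1.76, with limma adjusted p of 0.946 for each. Their groups do not overlap, so leaving out a mouse could not reverse the direction. The IL-6 receptor Il6ra was at 9.01 to 9.53 in non-Tg and 9.96 to 10.20 in Tg livers (0.77 ± 0.18, SE; limma adjusted p = 0.653), and Orm1 and Apcs, both acute phase proteins, differed by 0.35 and 0.40. Over all tested genes the median was 0.01, and 6611 of 12705 had a difference above 0. Whether these genes bear on the metallothionein signals was not tested.

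The other stress and timing lists had medians from -0.03 to 0.23. NRF2 targets had a median of -0.03 over 18 genes, with Gstm3, a glutathione transferase, at 1.61 and Me1, malic enzyme, at -0.64. Heat shock genes had a median of 0.05 over 11 genes, with the co-chaperone Bag3 at 0.58 and Hsp90aa1 at -0.35. Fasting-responsive genes had a median of 0.23 over 14 genes, 9 of them above 0, with 0.41 and 0.07 within the lower and higher bioC sets and 0.29 with a block for the sets. The members of smallest p went both ways: the cell cycle inhibitor Cdkn1a at 3.70, Tat as above, and the fatty acid hydroxylase Cyp4a14 at -2.11. Clock genes had a median of 0.02 over 14 genes, with Nr1d2 at -0.40, Bhlhe40 at -0.63 and Per1, which glucocorticoids also induce, at 0.50, each without overlap. The sources used here do not give the time of day of sampling.

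Markers of other liver cells were read beside the metallothioneins, because fewer cells of a type and less RNA per cell cannot be told apart in whole tissue. Kupffer cell and macrophage markers had 11 of 12 differences above 0 and a median of 0.26, beside 6611 of 12705 above 0 over all tested genes. Their mean log2 level ran from 10.52 to 10.58 in non-Tg and from 10.10 to 11.68 in Tg livers, highest in Tg 6, and within the lower and higher sets the median was 0.53 and -0.46; without Tg 6 it was -0.18, with 3 of 12 above 0. T and NK markers had 4 of 5 above 0, and 4 further listed genes lay below the filter. The 5 tested had a median of 1.34, but 0.72 and 0.58 within the lower and higher sets and 0.65 with the sets as a block. Nkg7 was far dimmer in non-Tg 2, which had the lowest mean level, than in the other mice. The mean level of these markers was 4.68 to 6.79 in non-Tg and 6.35 to 7.84 in Tg livers. Erythroid markers had 3 of 3 tested above 0, out of 7 listed, at 7.91 to 8.49 and 8.51 to 9.63. Stellate markers had 2 of 7 above 0, at 9.77 to 10.51 and 9.69 to 10.06. Endothelial markers had 5 of 7 above 0, neutrophil markers 4 of 6, B cell markers 4 of 5 and bile duct markers 1 of 4. Acinar pancreas markers had 2 of 2 tested above 0, out of 7 listed. The neutrophil list held 10 genes and the B cell and bile duct lists 6 each, so these counts are also partial. Adipocyte markers had 1 tested member, and Adipoq lay below the filter. No marker passed the threshold, and their part in the metallothionein values was not tested.

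The genes whose signals most resembled the mean of Mt1 and Mt2 were sought among 4439 tested genes that spanned at least 1 log2 unit. The highest Pearson r over the 6 arrays were 0.989 for Ccne1, which encodes cyclin E1, 0.982 for Cnot3, a subunit of the CCR4-NOT deadenylase, and 0.974 for Fam71d. Tifab followed at 0.973, the glutamine transporter Slc1a5 at 0.972 and the neuropeptide gene Tac1 at 0.966. In Ccne1, for example, non-Tg 1 was at 7.23, above Tg 7 at 7.16, with Tg 6 highest at 8.04. The groups overlapped for 5 of these 6 genes, all but Fam71d. With 6 arrays and this many candidates such values describe the ranking only.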

How the data were processed

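Liver RNA of 6 mice was measured on 1 Affymetrix array each. In the deposited table each probe set has 1 log2 signal per array, and the submitters' processing notes name GCOS. The sources used here give neither its version nor the summary algorithm. The antilogged signals have the same trimmed mean, 500.0, on each array. The 64 control probe sets were set aside, and 34945 probe sets with 1 symbol in the platform annotation remained. Probe sets with a mean above the 40th percentile (log2 5.63) were kept, and the one with the highest mean stood for each of 12705 genes. Groups were compared with limma 3.58.1 in R 4.3.3 (lmFit, eBayes with an intensity trend, 2-sided), with Benjamini-Hochberg adjustment over all genes and a threshold of 0.05. SEs and p-values of other probe sets come from the same fit over all kept probe sets. Promoters were matched by symbol to RefSeq sequences for 8 of the 10 members. Named beyond the members are genes past the threshold or else at most 3 of smallest p in each list, the other tested members of both transporter families where they stand out, and the 6 genes most like Mt1 and Mt2. Bbs2, Adipoq and albumin were named after their values were seen. Members, lists, tests and the sets of arrays were chosen with earlier results of these data known. Precision is limited by the number of arrays. Figures were drawn with matplotlib 3.10.9.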

Additional observations from a re-analysis of the deposited data

How the results depend on the processing

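Differences were recomputed under 19 alternatives. Mt1 kept its direction in 19 of 19, at 1.62 to 2.83 with limma adjusted p from 0.0446 to 0.996, and Mt2 in 19 of 19, at 1.71 to 2.84 with limma adjusted p from 0.187 to 0.996. Many of these outcomes were fixed in advance. Other filters, other variance settings and the test of every kept probe set leave the difference itself as it is. Neither leaving out a mouse nor a block for the sets of arrays can reverse a gene whose groups do not overlap. This holds for Mt1, Mt2, Slc39a1 and Slc39a4. With a block for the sets of arrays 1 of the 10 genes passed, Mt1, and 0 passed in the other 18. Slc39a1 stayed below 0, at -0.41 to -0.28, and Slc39a4 above 0, at 0.21 to 0.37. Mtf1 ran from 0.08 to 0.32, Slc30a10 from -0.48 to -0.07 and Slc39a14 from 0.07 to 0.19, each without a change of sign; Slc30a10 and Slc39a14 were closest to 0 without Tg 6. Slc30a7 ran from -0.16 to 0.00, with no direction left without Tg 5. Slc30a1 changed sign with the mean of kept probe sets (0.0525), and ran from -0.16 to 0.0828 when single mice were left out. Slc30a5 changed sign with median centring (-0.0203), and ran from -0.0599 to 0.13 when single mice were left out. Over all genes the count past the threshold, 2 in the main setting, was 4 with 16 added before the log, 6 with 64 added, 6 with the filter at the 20th percentile, 5 with median centring, 4 with robust variance and 4 with the block. Leaving out single mice gave 2 to 3. The cause of these changes was not tested. No paired analysis was possible because the groups share no replicate numbers. Without detection calls, low signals cannot be told from background.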
